A study of Mus musculus with 8 samples.

Results

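The genes described here are Atf4 and 9 genes of the amino acid response, namely Asns, Chac1, Trib3, Mthfd2, Psat1, Phgdh, Shmt2, Ddit3 and Sesn2. They were taken by symbol from a table of 30153 mouse genes, in which each of the 10 had 1 row. The table gave the abundance of each gene in heart as TPM, transcripts per 1000000 transcripts, which corrects for transcript length and so allows levels of different genes to be compared. The western diet group consisted of 4 heart libraries from aged C57/BL6 mice fed that diet, which is rich in fat and sugar; these mice carried the human gene for the type 1 receptor of the hormone angiotensin II, in its haplotype II. The control group consisted of 4 heart libraries from aged mice of the same haplotype and strain without that diet. All 8 libraries therefore share the human receptor haplotype and the aged state, and no young, wild-type or other-haplotype heart was compared. The labels give no exact age, sex, length of feeding or collection time, and they do not name the promoter or copy number of the human gene. Whether every library came from its own animal is not stated either, so the spread between libraries may be partly technical. Every p-value here sets the group difference against a variance estimated from that spread.

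ATF4 is the transcription factor of the integrated stress response. Kinases that sense missing amino acids, heme, misfolded proteins or viral RNA phosphorylate the translation initiation factor eIF2alpha, which slows protein synthesis but favours translation of the Atf4 message. The control lies largely in translation, so the level of Atf4 RNA need not follow the amount of ATF4 protein. In the nucleus ATF4 pairs with factors of the C/EBP family and binds C/EBP-ATF response elements in genes for amino acid synthesis, amino acid transport and feedback control.

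The core of the C/EBP-ATF response element, written TGATGNAA on one strand and TTNCATCA on the other, was searched in the RefSeq promoters of build GRCm38.p6, over the 250 bases before each RefSeq start site. All 10 genes had a promoter there, and 2 of them, Asns and Chac1, held the core. It was present in 3.91% of all 27025 genes with a promoter. Trib3 had a match outside that window, from base 15 to base 22 after its RefSeq start site. The GENCODE spans printed with each gene begin elsewhere: by them the Asns core lies inside the gene, and the Trib3 match lies before the gene's start. These stretches are shown because they hold the letters that ATF4 is known to recognise, with the matched core in capitals and each read along its gene's own strand.
Asns, chr6:7693215-7693242, minus strand: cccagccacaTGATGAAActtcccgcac
Chac1, chr2:119351023-119351082, plus strand: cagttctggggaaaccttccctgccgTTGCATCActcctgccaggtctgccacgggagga
Trib3, chr2:152344029-152344056, minus strand: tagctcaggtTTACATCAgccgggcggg
Counted from the RefSeq start site, the Asns core runs from base -23 to base -16 and the Chac1 core from base -193 to base -186. Trib3 and the other 7 genes do not have these letters in the window searched. A match in letters is a description of the sequence and was not tested for binding.

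The libraries differed in other ways that touch the comparison. Heart markers were high throughout: the summed level of 6 cardiomyocyte markers (Myh6, Actc1, Tnnt2, Myl2, Tnni3 and Ryr2) was 31956 to 41167 TPM with western diet and 39497 to 43088 TPM in control. The sum of 4 Y-linked transcripts was 0.227 to 0.270 TPM in western diet replicates 1, 2 and 3, but 41.3 TPM in replicate 4, against 38.6 to 52.6 TPM in the controls. Y-linked status therefore nearly coincides with the group, and only western diet replicate 4 is like the controls in it. The sum of 5 kidney tubule markers was 79.2 TPM in western diet replicate 4, between 9.12 and 14.4 TPM in western diet replicates 1 to 3, and 0.104 to 0.737 TPM in control. Umod, Miox and Slc34a1 of that list were at 0 in every control. The sum of 4 red cell markers was 10036 TPM in western diet replicate 1, between 1429 and 3639 TPM in western diet replicates 2 to 4, and 1757 to 3252 TPM in control. The sum of 4 atrial markers was 1565 TPM in western diet replicate 2, and in western diet replicates 1, 3 and 4 it lay between 75.1 and 176 TPM. In control it was 895 TPM in replicate 1, 6176 TPM in replicate 3, and 101 and 138 TPM in replicates 2 and 4. The means of all 5 macrophage markers were higher with western diet, and the sum was 62.9 to 102.8 TPM against 51.8 to 63.4 TPM in control. The means of all 4 neutrophil markers were also higher, but Ly6g was above 0 only in western diet replicate 1, at 0.244 TPM. The sum of the 4 was 8.50 to 16.4 TPM with western diet and 3.69 to 7.67 TPM in control, without overlap. The sum of 5 skeletal muscle markers did not overlap either, at 0.226 to 1.22 TPM with western diet and 1.92 to 2.62 TPM in control. The part of these differences in the values below was not tested, except where a value is given without the library in question.

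The comparison asks how the western diet relates to the RNA of these genes in the aged heart. Of the 10 genes, 8 had a higher and 2 a lower mean with western diet. The 10 were chosen by name with their TPM values in this same comparison, western diet against control, in view. The values that follow therefore describe them. No test of them is used as a result. How many the fit over all genes called is given beside the share of all genes called, and by setting in the closing section. Mthfd2, Asns and Chac1 had 1.97 to 2.35 times the control mean with western diet and did not overlap with control. Atf4 itself had nearly equal means, and Ddit3, which encodes the factor CHOP, was lower in every western diet library. Trib3, Shmt2, Psat1, Phgdh and Sesn2 overlapped between the groups.

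**Figure D1:**
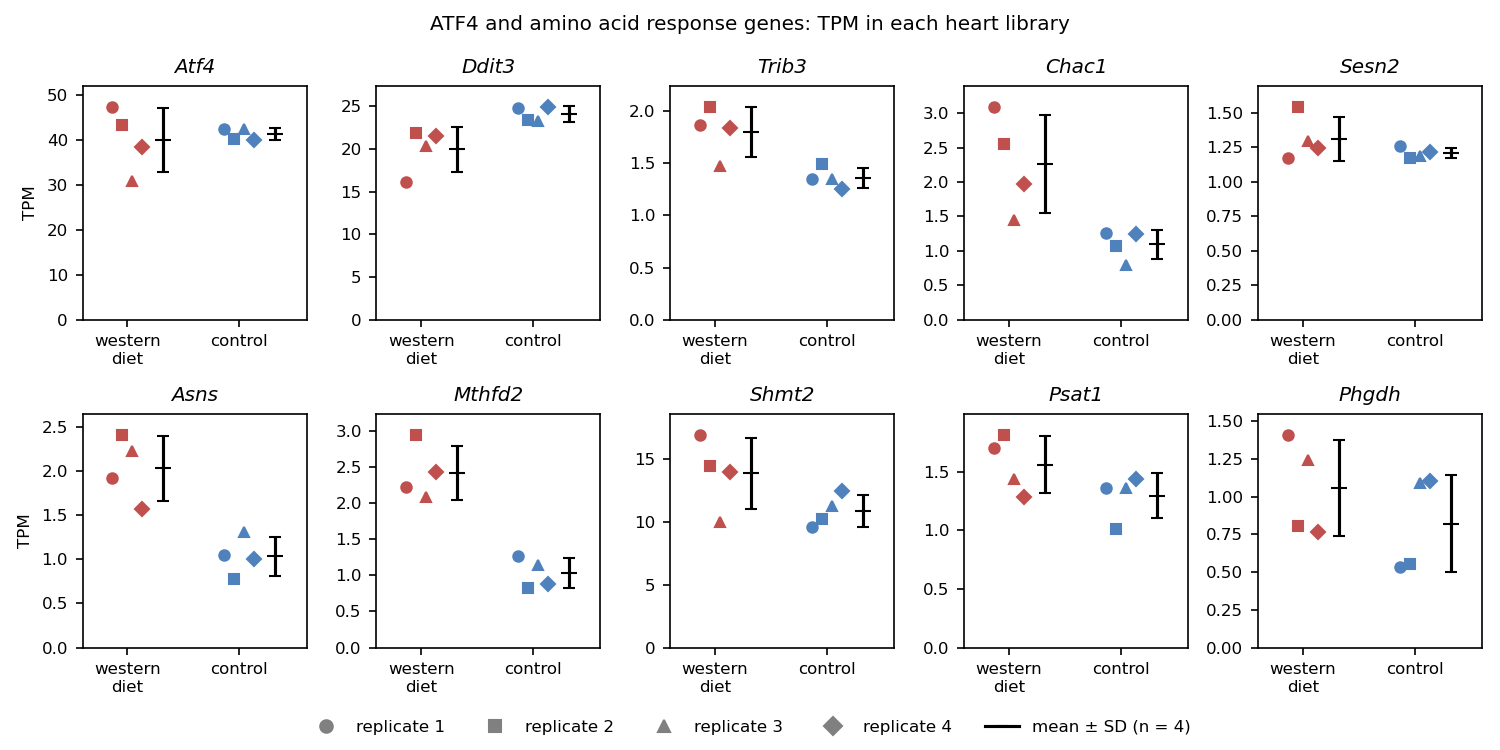
TPM of the 10 genes in each heart library (vertical axes, starting at 0), with 4 western diet libraries on the left and 4 control libraries on the right of each panel; marker shapes give the replicate number, which pairs nothing, and black bars give mean ± SD. Mthfd2, Asns and Chac1 lie above all controls in all 4 western diet libraries, Ddit3 lies below them, and Atf4 lies on both sides of them.

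Atf4 (ENSMUSG00000042406, chromosome 15, 80255184 to 80257541, plus strand, GENCODE vM21 on GRCm38) was at 47.3, 43.3, 30.8 and 38.4 TPM in western diet replicates 1 to 4, against 42.4, 40.2, 42.5 and 39.96 TPM in control replicates 1 to 4. Western diet replicates 1 and 2 lay above all controls and replicates 3 and 4 below them. The mean was 39.9 ± 7.08 TPM with western diet and 41.3 ± 1.37 TPM in control (SD, n = 4 per group), so the western diet libraries spread more widely around nearly the same level. The difference in log2(TPM + 1), western diet minus control, was -0.06 (SE 0.12). Without western diet replicate 3 it was 0.05, with the opposite sign.

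Ddit3 (ENSMUSG00000025408, chromosome 10, 127290774 to 127296288, plus strand) encodes CHOP, a partner of C/EBP factors that is induced through ATF4 and promotes cell death under lasting ER stress. It was at 16.1, 21.8, 20.3 and 21.5 TPM in western diet replicates 1 to 4, against 24.8, 23.4, 23.2 and 24.9 TPM in control replicates 1 to 4. All 4 western diet libraries were lower than the lowest control, and replicate 1 was the lowest. Over all 10969 genes tested, 1.75% had all 4 western diet libraries below all 4 controls. The mean was 19.95 ± 2.66 TPM with western diet and 24.1 ± 0.888 TPM in control (SD, n = 4 per group), a log2 difference of -0.27 (SE 0.10). With a model term for Y-linked transcripts, an estimate that rests on western diet replicate 4, the log2 difference was -0.15 (SE 0.16). Without western diet replicate 1 it was -0.17 (SE 0.09). Heart tissue holds many cell types, so fewer cells with the transcript and less of it per cell cannot be told apart. The exons of Ddit3 share 68 bases with Mars, the methionyl-tRNA synthetase gene on the opposite strand, and the annotation holds another Ddit3 identifier (ENSMUSG00000116429) that shares 105 exonic bases and is not analysed here. Whether the strand was used in quantification is not given in the sources used here. Mars was at 14.3 to 23.7 TPM with western diet and 16.99 to 18.9 TPM in control.

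Trib3, a pseudokinase that binds ATF4 and AKT and acts as feedback on the response (ENSMUSG00000032715, chromosome 2, 152337422 to 152344032, minus strand), was at 1.86, 2.04, 1.47 and 1.84 TPM in western diet replicates 1 to 4, against 1.35, 1.49, 1.35 and 1.26 TPM in control replicates 1 to 4. Only western diet replicate 3 fell inside the control range. The log2 difference was 0.24 (SE 0.10), with a mean of 1.80 ± 0.237 TPM with western diet and 1.36 ± 0.0964 TPM in control (SD, n = 4 per group).

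Chac1, an enzyme that cleaves glutathione and is a target of the ATF4 and CHOP branch (ENSMUSG00000027313, chromosome 2, 119351229 to 119354381, plus strand), was at 3.09, 2.56, 1.44 and 1.96 TPM in western diet replicates 1 to 4. The controls were at 1.26, 1.07, 0.800 and 1.24 TPM. The lowest western diet library was thus only slightly above the highest control. The mean was 2.26 ± 0.713 TPM with western diet and 1.09 ± 0.212 TPM in control (SD, n = 4 per group), a ratio of 2.07 and a log2 difference of 0.62 (SE 0.16). With a model term for Y-linked transcripts, an estimate that rests on western diet replicate 4, it was 0.51 (SE 0.26). Its paralog Chac2, also a glutathione-cleaving enzyme, was at 8.27 to 8.75 TPM with western diet and 8.61 to 10.4 TPM in control, with overlapping groups.

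Sesn2 encodes sestrin 2, a leucine sensor that restrains the growth kinase complex mTORC1 (ENSMUSG00000028893, chromosome 4, 132492032 to 132510501, minus strand). It was at 1.17, 1.54, 1.29 and 1.25 TPM in western diet replicates 1 to 4 and at 1.26, 1.17, 1.19 and 1.21 TPM in control replicates 1 to 4. The groups overlapped, with a log2 difference of 0.06 (SE 0.10). Its paralog Sesn1, better known as a p53 target, was at higher levels, with 26.9 to 50.2 TPM with western diet and 30.9 to 36.5 TPM in control, and Sesn3 was listed at 0 in all 8 libraries.

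Asns is the enzyme that makes asparagine from aspartate and glutamine and is the classic target of the amino acid response (ENSMUSG00000029752, chromosome 6, 7675169 to 7693254, minus strand). It was at 1.92, 2.41, 2.23 and 1.57 TPM in western diet replicates 1 to 4, against 1.05, 0.776, 1.30 and 1.00 TPM in control replicates 1 to 4. All 4 western diet libraries were above all 4 controls, and replicate 4, the library with Y-linked transcripts and the highest kidney sum, was the lowest of them. The mean was 2.03 ± 0.367 TPM with western diet and 1.03 ± 0.216 TPM in control (SD, n = 4 per group), a ratio of 1.97 and a log2 difference of 0.58 (SE 0.12). With the Y-linked term the log2 difference was 0.34 (SE 0.18).

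Mthfd2 is a mitochondrial enzyme that oxidises methylene-tetrahydrofolate and feeds carbon units from serine to purine synthesis. It is scarce in most adult tissues. Mthfd2 (ENSMUSG00000005667, chromosome 6, 83305691 to 83325908, minus strand) was at 2.21, 2.94, 2.08 and 2.43 TPM in western diet replicates 1 to 4, against 1.26, 0.822, 1.14 and 0.883 TPM in control replicates 1 to 4. The lowest western diet library was well above the highest control. The mean was 2.41 ± 0.378 TPM with western diet and 1.03 ± 0.209 TPM in control (SD, n = 4 per group), a ratio of 2.35 and a log2 difference of 0.75 (SE 0.12). Western diet replicates 1, 2 and 3 alone gave a ratio of 2.35. Replicate 4 alone, the library with Y-linked and the highest kidney transcripts, gave 2.36. Y-linked transcripts were scarce in replicates 1 to 3 and present in all controls, so the first ratio cannot separate diet from Y-linked status. The second rests on a single library. The log2 difference was 0.76 (SE 0.19) with the Y-linked term and 0.81 (SE 0.16) without the 3 libraries with atrial transcripts.

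Shmt2, the mitochondrial serine hydroxymethyltransferase that supplies the substrate of Mthfd2 (ENSMUSG00000025403, chromosome 10, 127517123 to 127522444, minus strand), was at 16.9, 14.4, 10.01 and 13.99 TPM in western diet replicates 1 to 4. The controls were at 9.55, 10.2, 11.2 and 12.5 TPM. Western diet replicate 3 lay inside the control range and the other 3 above it, with a log2 difference of 0.30 (SE 0.14). Exons of Shmt2 share 32 bases with those of Ndufa4l2 on the opposite strand. Ndufa4l2 was at 18.3, 15.97, 10.4 and 14.9 TPM in western diet replicates 1 to 4, against 14.96, 12.8, 11.6 and 12.3 TPM in control replicates 1 to 4. Both genes were highest in replicate 1 and lowest in replicate 3 of the western diet libraries, and the part of shared reads in the Shmt2 values was not tested. The cytosolic paralog Shmt1 was at 3.33 to 6.84 TPM with western diet and 4.61 to 6.14 TPM in control.

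Phgdh and Psat1 catalyse the opening steps of serine synthesis from a glycolytic intermediate. Psat1 (ENSMUSG00000024640, chromosome 19, 15904678 to 15947337, minus strand) was at 1.28 to 1.82 TPM with western diet and 1.02 to 1.44 TPM in control. Phgdh (ENSMUSG00000053398, chromosome 3, 98313170 to 98339990, minus strand) was at 1.41, 0.808, 1.24 and 0.768 TPM in western diet replicates 1 to 4 and at 0.535, 0.557, 1.09 and 1.10 TPM in control replicates 1 to 4. Both overlapped between the groups, with log2 differences of 0.16 (SE 0.11) for Psat1 and 0.18 (SE 0.15) for Phgdh. Several processed pseudogenes resemble Phgdh, among them Gm7901 with 98.7% identity over 84.3% of the transcript, which was listed at 0 in all 8 libraries. Phgdh therefore could hold reads of copies, and this was not tested.

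**Figure D2:**
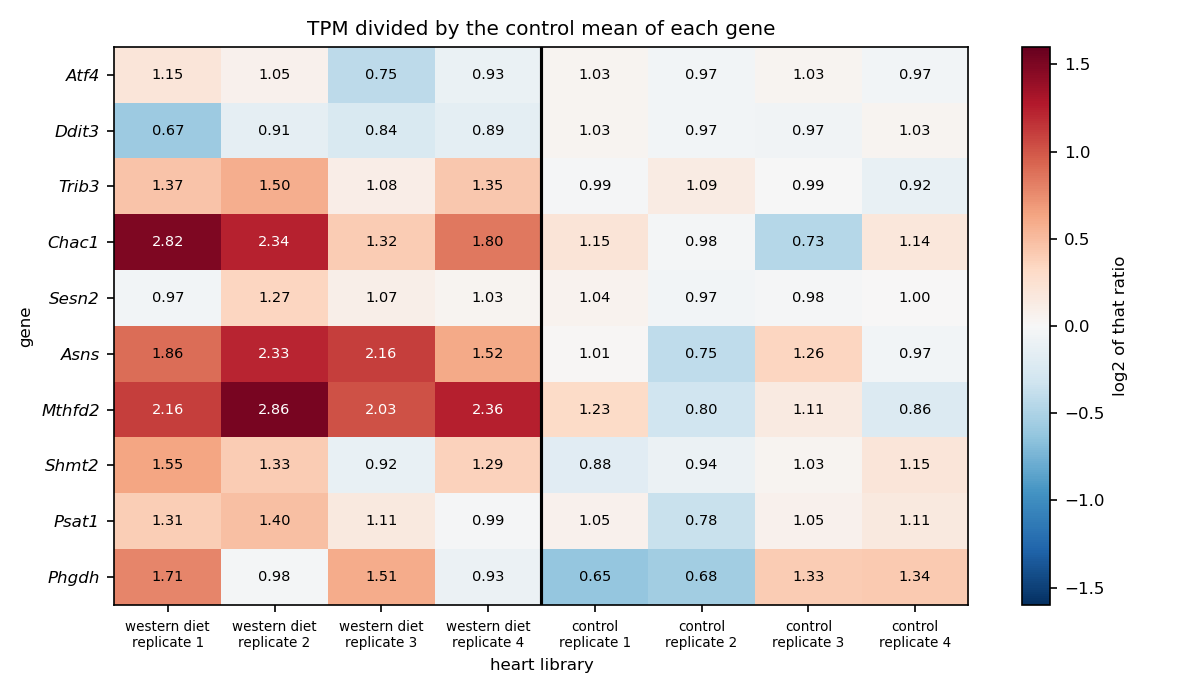
TPM of each gene (rows) in each heart library (columns, western diet left of the line and control right of it) divided by that gene's control mean, as printed in each cell; colour gives the log2 of that ratio. The Mthfd2 row is between 2.03 and 2.86 in the western diet columns, and the Atf4 row between 0.75 and 1.15.

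The western diet libraries were not alike. Replicates 1 and 2 each had 8 of the 10 genes above all controls, and replicates 3 and 4 each had 5. Of the 10 genes, 6 had their highest western diet value in replicate 2 and 4 in replicate 1, while 5 had their lowest in replicate 3. Atf4, Chac1 and Shmt2 had the same order over the western diet libraries, with replicate 1 highest, then replicates 2, 4 and 3. Asns, Mthfd2 and Phgdh did not follow that order. Replicate 1 also had the highest red cell sum and replicate 2 the atrial transcripts.

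In level the genes fell into a high and a low part. Atf4, at 30.8 to 47.3 TPM over the 8 libraries, was above Ddit3, at 16.1 to 24.9 TPM, in all 8. Ddit3 was above Shmt2, at 9.55 to 16.9 TPM, in 7 of 8 libraries. Their ranges touched through western diet replicate 1. The other 7 genes had means under 3 TPM, with ranges that overlapped from each to the next. Psat1 was above Sesn2, and Sesn2 above Phgdh, in 7 of 8 libraries each, while the other neighbours kept the order of their means in 3 to 5 of 8. Atf4 had a higher mean level than 87.3% of the genes tested, Mthfd2 than 10.9%, Asns than 8.36% and Phgdh than 0.303%. TPM keeps no read depth, so how many reads stand behind these low values is unknown. A log2 difference on the TPM + 1 scale also understates the change of genes near 1 TPM.

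**Figure D3:**
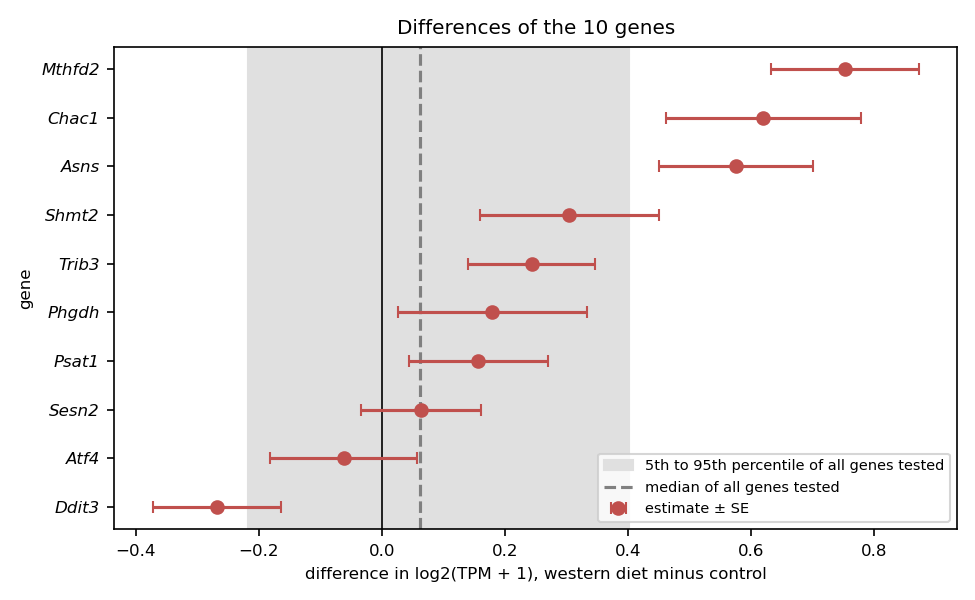
Difference in log2(TPM + 1), western diet minus control, for each of the 10 genes (points, with SE as bars), beside the median (dashed) and the 5th to 95th percentile (grey) of all 10969 genes tested. Mthfd2, Chac1 and Asns lie above the grey band, which ends at 0.40, Ddit3 lies below it, and the other 6 lie within it.

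All 10 genes passed the filter of at least 1 TPM in at least 4 of 8 libraries, and Phgdh did so with 4. The fit over all genes (limma, Benjamini-Hochberg adjusted p under 0.05) called 0.301% of 10969 genes. It called 1 of the 10 genes here, Mthfd2, as higher, beside 0.228% of all genes called higher and 0.0729% called lower. This call was absent without western diet replicate 2 and without any 1 of the 4 controls, and also with the Y-linked term, while the log2 difference without single libraries stayed between 0.68 and 0.81. All 4 western diet libraries were above all controls for 3 of the 10 genes, against 4.85% of all genes tested, and below them for 1, against 1.75%. In either direction 6.6% of all genes did not overlap. The median log2 difference was 0.21 over the 10 genes and 0.06 over all genes tested. Since the choice of the genes used this comparison, nothing is read from these counts.

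The rest of the pathway was described through 8 lists, which together hold 132 further genes, 113 of them high enough to be tested. Of the 113, 0 passed the adjusted threshold of the limma fit over all genes, in either direction. At an unadjusted limma p under 0.05 there were 13 higher and 2 lower, 13.3% of the list genes, against 11.7% of all genes tested. The median log2 difference was 0.07 over the 113 and 0.06 over all genes tested. All 4 western diet libraries lay above all 4 controls for 5 of the 113 and below them for 2. Together these were 6.19% of the list genes, against 6.6% of all genes tested. None of the differences that follow passed, so they are given as values.

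**Figure D4:**
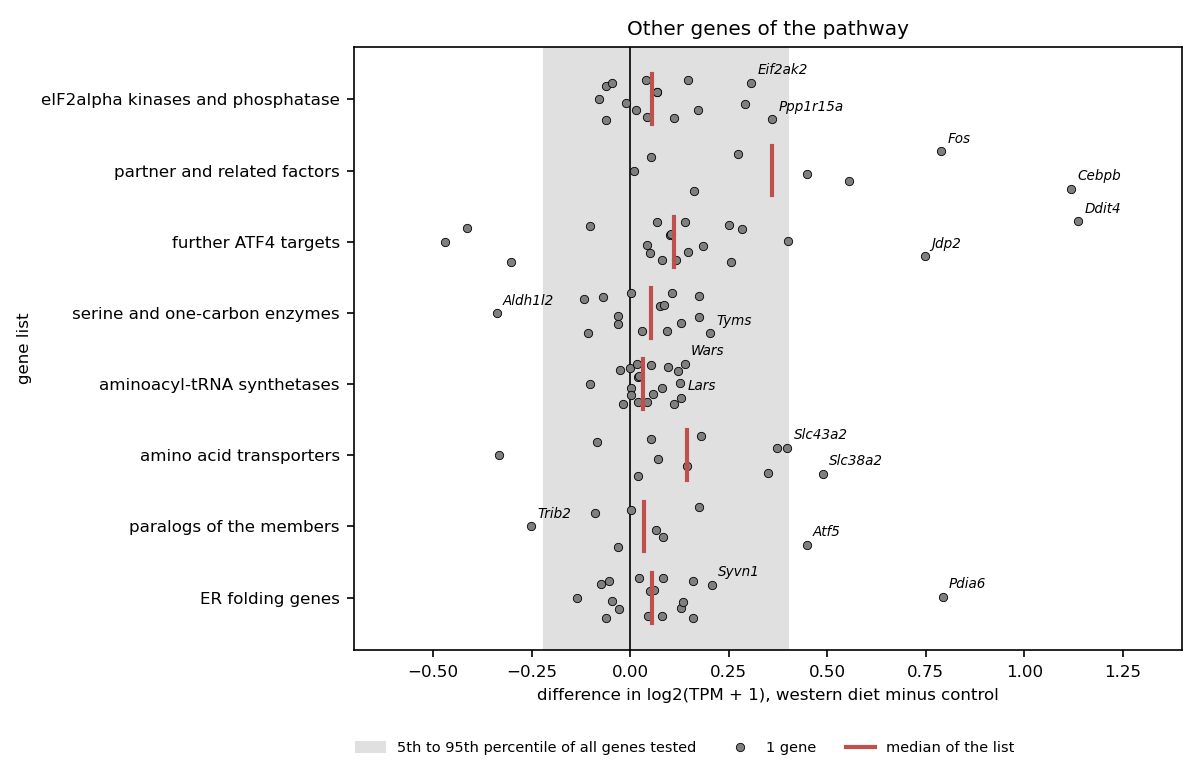
Difference in log2(TPM + 1), western diet minus control, of each tested gene in the 8 lists (points; vertical position within a list has no meaning), with the median of each list in red and the 5th to 95th percentile of all genes tested in grey. The medians lie between 0.03 for the aminoacyl-tRNA synthetases and 0.36 for the partner factors, and the genes with the largest differences in each list are named.

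Upstream of ATF4, the 16 kinases, regulators and eIF2 or phosphatase subunits were all tested, with a median log2 difference of 0.06 and a smallest limma adjusted p of 0.439. The sensor kinases had overlapping levels in the groups. Eif2ak3, the ER stress kinase PERK, was at 2.21 to 2.47 TPM with western diet and 1.86 to 2.95 TPM in control. Eif2ak4, the amino acid sensor GCN2, was at 1.24 to 1.67 TPM with western diet and 1.11 to 1.65 TPM in control. Eif2ak1, the heme-regulated kinase HRI, was at 7.73 to 8.92 TPM with western diet and 7.16 to 8.59 TPM in control. Eif2ak2, the RNA sensor PKR and itself an interferon-induced gene, was at 4.22 ± 1.08 TPM with western diet and 3.16 ± 0.294 TPM in control (SD, n = 4 per group), highest in western diet replicate 4 at 5.72 TPM. Ppp1r15a, the GADD34 subunit that returns eIF2alpha to its active state, was at 22.8, 17.0, 10.2 and 13.9 TPM in western diet replicates 1 to 4 and at 10.8 to 12.9 TPM in control. Impact, an inhibitor of GCN2, was at 4.999 to 8.60 TPM with western diet and 4.81 to 5.64 TPM in control.

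Factors that pair with ATF4 or act beside it all had the higher mean with western diet, 8 of 8, and 0 of them passed. Their median log2 difference was 0.36, against 0.06 over all genes tested. A higher mean was thus the commoner direction over all genes as well. With median-of-ratios scaling the median over all genes was -0.005. Jun (0.05) and Nupr1 (0.01) lay below the median of 0.06 over all genes. Atf5, the closest relative of Atf4 and also under translational control, was at 29.9, 30.9, 22.8 and 24.9 TPM in western diet replicates 1 to 4, against 20.5, 17.3, 21.2 and 19.0 TPM in control replicates 1 to 4. The groups did not overlap, and the log2 difference was 0.45 (SE 0.11, limma adjusted p = 0.146). Cebpb, the C/EBP partner, was at 17.1, 11.4, 3.02 and 3.79 TPM in western diet replicates 1 to 4, against 2.62 to 2.94 TPM in control. Its log2 difference of 1.12 (SE 0.40, limma adjusted p = 0.302) rests mostly on replicates 1 and 2. Atf3, a repressor that ATF4 induces, was at 6.16, 6.23, 2.15 and 6.03 TPM in western diet replicates 1 to 4 and at 1.88 to 4.27 TPM in control. Fos was at 1.79 to 6.46 TPM with western diet and 1.10 to 2.47 TPM in control (limma adjusted p = 0.280). Cebpg and Nupr1 overlapped, with log2 differences of 0.16 and 0.01.

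Among 20 tested further targets of ATF4, 16 had the higher and 4 the lower mean. Their median log2 difference was 0.11, against 0.06 over all genes tested. Ddit4, the mTORC1 inhibitor REDD1, was at 54.5, 30.5, 7.65 and 8.48 TPM in western diet replicates 1 to 4, against 6.42, 8.21, 6.13 and 11.6 TPM in control replicates 1 to 4. Replicates 1 and 2 were far above the controls, and replicates 3 and 4 inside their range. Jdp2, a bZIP factor, was at 7.50, 8.04, 2.83 and 3.79 TPM in western diet replicates 1 to 4 and at 2.45 to 2.90 TPM in control. Cth, which makes cysteine from cystathionine, was at 0.600, 0.489, 0.515 and 1.21 TPM in western diet replicates 1 to 4, against 1.26 to 1.42 TPM in control. All 4 western diet libraries were below the controls, with a log2 difference of -0.47 (SE 0.13, limma adjusted p = 0.191). Without western diet replicate 4, Cth passed, with a log2 difference of -0.60 (limma adjusted p = 0.0256). Cth then reached 1 TPM only in control. Every control also had Y-linked transcripts, which were scarce in the western diet libraries left, so that call cannot separate diet from Y-linked status. Stc2, a secreted glycoprotein, was at 1.94 to 2.76 TPM with western diet and 3.05 to 3.65 TPM in control, also without overlap (limma adjusted p = 0.339).

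Gdf15 and Fgf21, secreted factors that ATF4 induces, were at low levels. Gdf15 was at 1.19, 1.85, 0.445 and 1.77 TPM in western diet replicates 1 to 4, against 0.518, 0.699, 0.416 and 0.561 TPM in control replicates 1 to 4, and did not reach the filter. Fgf21 was at 0.0501 to 0.263 TPM with western diet. In control it was at 0.0493 TPM in replicate 2 and listed at 0 in the other 3 libraries. Neither was tested.

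Of the other enzymes of serine and folate metabolism, 16 were tested and 0 passed. Their log2 differences ran between -0.34 and 0.20 with a median of 0.05, and 10 had a higher and 6 a lower mean with western diet. Psph, which completes serine synthesis, was at 3.44 to 4.14 TPM with western diet and 3.09 to 4.39 TPM in control. Gcsh, a carrier of the glycine cleavage system, was at 40.2 to 47.0 TPM with western diet and 36.7 to 39.4 TPM in control, without overlap (limma adjusted p = 0.425). Aldh1l2, the mitochondrial enzyme that oxidises formyl-tetrahydrofolate and another ATF4 target, was at 0.986 to 1.69 TPM with western diet and 1.30 to 2.95 TPM in control. Mthfd2l, the paralog of Mthfd2, was at 0.977 to 1.64 TPM with western diet and 1.27 to 1.52 TPM in control, with a log2 difference of 0.00 (SE 0.12). Mthfd1l stayed under 0.4 TPM in every library and was not tested.

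The aminoacyl-tRNA synthetases, several of which are ATF4 targets, had the narrowest range of the 8 lists. Log2 differences of the 20 tested members of that list ran from -0.10 to 0.14, and at an unadjusted limma p under 0.05 there were 0. Wars was at 15.9 to 17.2 TPM with western diet and 13.3 to 17.4 TPM in control.

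Of the amino acid transporters, 11 of 21 were tested and 9 had the higher mean. Their median log2 difference was 0.15, against 0.06 over all genes tested. Slc38a2, the SNAT2 transporter of neutral amino acids and a known target of the response, was at 42.2, 38.4, 37.2 and 29.3 TPM in western diet replicates 1 to 4, against 23.3, 21.4, 32.0 and 27.2 TPM in control replicates 1 to 4 (log2 difference 0.49, SE 0.14, limma adjusted p = 0.194). Western diet replicate 4 fell inside the control range. Slc7a5, the light chain of the large neutral amino acid transporter, was at 1.74 to 2.47 TPM with western diet and 1.17 to 1.70 TPM in control, without overlap (limma adjusted p = 0.281). Its heavy chain Slc3a2 was at 15.3, 16.4, 8.23 and 7.48 TPM in western diet replicates 1 to 4 and at 7.46 to 9.09 TPM in control. Slc43a2, another carrier of large neutral amino acids, was at 4.17 to 5.73 TPM with western diet and 2.80 to 3.89 TPM in control, without overlap (limma adjusted p = 0.223). The cystine carrier Slc7a11, a further target, stayed under 0.3 TPM in all 8 libraries and was not tested.

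Genes of ER folding, which answer to the other arms of the unfolded protein response, had a median log2 difference of 0.06 over 18 tested. Pdia6, a disulfide isomerase, had the largest, at 3.25 to 6.77 TPM with western diet and 1.09 to 4.04 TPM in control (limma adjusted p = 0.350).

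By Pearson r of log2(TPM + 1) over the 8 libraries, among 10891 other named genes tested, those most like Atf4 were Vps25 (0.98), the pseudogene Trmt112-ps2 (0.98), Use1 (0.97), Tm2d2 (0.97) and Psmb6 (0.97). Each of these had its highest value in western diet replicate 1 and its lowest in western diet replicate 3, as Atf4 did. Those most like Mthfd2 were Pno1 (0.99), Cldn5 (0.98), Arntl (0.98), Mrm2 (0.97) and Scn4b (0.97), and in each all 4 western diet libraries were above all 4 controls. These values describe likeness over 8 libraries of 2 groups and were not tested.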

How the data were processed

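Per the labels' protocols, polyadenylated RNA from a Qiagen kit was made into libraries with an Illumina stranded kit (TruSeq). The authors deposited gene-level TPM for 8 libraries. The submitters' processing notes list the tools kallisto and DESeq2 and the build GRCm38, without versions or roles, and the annotation release is not given in the sources used here. Columns summed to 941318 to 953448 TPM. TPM is relative, so an abundant transcript lowers all others, and it keeps no read depth, so no counting interval is given. Symbols and coordinates (1-based) came from GENCODE vM21, which named 29732 of 30153 identifiers, and promoters from RefSeq (GRCm38.p6). Similar transcripts were found with BLAST 2.17.0 (at least 90% identity over at least 20% of a transcript).

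Groups came from the labels, and replicate numbers follow accession order, so they pair nothing. A gene entered the fit if it reached 1 TPM in 4 or more libraries, which 10969 did. The fit used limma 3.58.1 (R 4.3.3) on log2(TPM + 1), with the group as the only term, an intensity trend and two-sided Benjamini-Hochberg adjusted p under 0.05. It was tested on simulated data in which the noise of each gene was independent. Differences between libraries that many genes share were not simulated. The 10 genes, the lists and the alternatives were chosen with earlier results of these data known. From the lists, genes were named by a rule: a fixed set of 28 regulators, targets and paralogs, and the 3 tested genes of smallest p in each list; not all of them are printed. Mars, Ndufa4l2, Gm7901 and the markers lie outside it. Alternatives were other pseudocounts, filters, scalings, thresholds and library sets. Figures were drawn with matplotlib 3.10.9 in Python 3.11.15.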

Additional observations from a re-analysis of the deposited data

Results flagged for a closer look

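A library was marked when it stood apart from the other 3 of its group by Dixon's 95% criterion. Of 106 groups looked at (53 genes, 2 groups each), 3 were marked. Chance marks about 1 in 20 of the groups that can be marked. A group needed a library of at least 1 TPM, so low ones, such as those of Fgf21 and Slc7a11, could not be marked. Atf3 was at 2.15 TPM in western diet replicate 3, against 6.03 to 6.23 TPM in western diet replicates 1, 2 and 4. Cth was at 1.21 TPM in western diet replicate 4, against 0.489 to 0.600 TPM in western diet replicates 1 to 3. Slc43a2 was at 2.80 TPM in control replicate 2, against 3.72 to 3.89 TPM in the other controls. None of the 10 genes was marked.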

How the results depend on the processing

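The further pathway genes tested numbered 113 in the fit as reported, 130 without a filter and 76 with a mean of at least 5 TPM. Of these, 0 passed under all alternatives except 1: without western diet replicate 4, Cth passed, so the count over left-out libraries ran from 0 to 1. In that fit diet and Y-linked status coincide. Of the 10 genes, 1 passed in the fit as reported; 0 passed without a filter, with a mean of at least 5 TPM (which leaves Mthfd2 out), with the Y-linked term, in the 5 libraries with Y-linked transcripts or without the 3 libraries with atrial transcripts, and 2 (Mthfd2 and Asns) passed with quantile normalization or an adjusted p of 0.10. Leaving out single libraries gave 0 to 2: 0 without western diet replicate 2 or any control, and 2 without western diet replicate 4. Over all genes 33 passed (25 higher, 8 lower), and 5, 15, 54, 76 and 5 under the first 5 of these settings in that order, 61 (40 higher, 21 lower) with quantile normalization, 95 at an adjusted p of 0.10, 39 (26 higher, 13 lower) with median-of-ratios scaling, and 8 to 95 without single libraries (95 without western diet replicate 4, 8 without control replicate 4). The cause was not tested. Nothing is read from the counts of the 10 genes, whose choice used this comparison.

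Of 173 recomputed differences of the 10 genes, 164 moved by less than the spread between libraries and 5 changed sign. These were Atf4, 0.05 without western diet replicate 3, and Psat1 (-0.0039) and Phgdh (-0.03) with the Y-linked term or in the 5 libraries with Y-linked transcripts. Mthfd2 ran from 0.68 to 1.17, Chac1 from 0.50 to 0.95, Asns from 0.34 to 0.92 and Ddit3 from -0.35 to -0.15. No paired analysis was possible because the labels give nothing that links a western diet library to a control library. Depth is unknown, and 7 of the 10 genes averaged under 3 TPM.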
